A study of Mus musculus with 7 samples.

Results

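The genes described here encode semaphorins, their plexin receptors, the plexin domain proteins Plxdc1 and Plxdc2, the neuropilins, and the receptors and ligands of vascular endothelial growth factor (VEGF). Members were chosen by gene symbol, with earlier results of these data known but with no measured value in the rule, and each was read from the probeset with the highest mean over 7 arrays. All 39 genes that the symbol rule names in the RefSeq table were measured, out of 19938 genes on the arrays: 7 secreted class 3 semaphorins, 13 membrane semaphorins, 9 plexins, 2 plexin domain proteins, 2 neuropilins, 3 VEGF receptors and 3 VEGF ligands. The arrays held RNA of lung CD11b+ conventional dendritic cells (cDC2s), antigen-presenting cells sorted as CD11c+ MHC-II+ CD11b+ and negative for Ly6C and CD64. The study compared their state at rest and after an inhalant allergen, with and without the transcription factor Irf3, a factor that innate sensors activate and that induces interferon beta.

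Each array held a pool from 10 female mice on the C57Bl/6 background, taken 12 hours after treatment. The groups were wild type mice given PBS (2 arrays), wild type mice given 100 µg of house dust mite extract (2 arrays), and Irf3-deficient mice given the same dose of extract (3 arrays). The labels give no age, no route and no description of the Irf3 allele. Irf3-deficient mice given PBS were not analysed here, so a difference between genotypes that was present before treatment and a difference in the response to the extract cannot be told apart. Nothing states that the pools came from separate experiments, so the p-values measure the spread between these pools only. A pool is also a bulk sample, in which a change in the share of expressing cells and a change in RNA per cell cannot be told apart.

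Irf3 followed the labels, with log2 values of 9.48 to 9.59 in the 4 wild type arrays and 8.13 to 8.30 in the 3 Irf3-deficient arrays. The defining genes of the sort were bright in every array, with the MHC class II gene H2-Ab1 between 14.14 and 14.29 and Itgax, the gene of CD11c, between 12.63 and 13.06. Itgam, the gene of CD11b, was at 12.11 and 12.02 in PBS wild type, 10.92 and 11.10 in mite-treated wild type, and 11.64 to 11.81 in Irf3-deficient cells. Single arrays weighed on the counts of calls over all genes. Without replicate 1 of PBS wild type, 749 in place of 2153 genes differed between Irf3-deficient and PBS wild type cells. Without replicate 2 of mite-treated wild type, 2333 in place of 3505 genes passed in the wild type response and 2562 in place of 3932 between the treated genotypes. A gene is said below to have risen, fallen or differed only where it passed an adjusted p of 0.05 in a fit over all 19938 genes, and every difference is on the log2 scale.

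Semaphorins are guidance proteins, secreted or anchored in the membrane, that steer the shape and movement of cells through plexins. Most class 3 semaphorins need a neuropilin beside the plexin, and neuropilins also bind VEGF together with the VEGF receptors Kdr and Flt1. In dendritic cells this family is known for costimulation of T cells (Sema4a), for migration into lymphatics (Plxna1 and Nrp1) and for contacts with T cells, while VEGF receptors are best known from blood and lymphatic endothelium.

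Kdr, Sema7a, Sema4f, Flt4 and Plxnc1 rose after mite extract in wild type cells, and the 250 bases before their annotated start are shown because they share that rise. The sequences are from RefSeq, GRCm38.p6, 5′ to 3′ on the strand of the gene: Kdr at chr5:75978456-75978705 (minus strand), Sema7a at chr9:57939862-57940111 (plus strand), Sema4f at chr6:82939770-82940019 (minus strand), Flt4 at chr11:49609429-49609678 (plus strand) and Plxnc1 at chr10:94944846-94945095 (minus strand). Capitals mark a match to a simple form of the interferon-stimulated response element, GAAA, any 2 bases, then GAAA again.
Kdr: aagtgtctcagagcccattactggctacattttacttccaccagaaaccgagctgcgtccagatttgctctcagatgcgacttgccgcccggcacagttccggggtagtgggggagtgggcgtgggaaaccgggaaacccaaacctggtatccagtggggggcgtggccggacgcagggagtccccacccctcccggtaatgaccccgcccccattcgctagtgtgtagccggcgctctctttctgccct
Sema7a: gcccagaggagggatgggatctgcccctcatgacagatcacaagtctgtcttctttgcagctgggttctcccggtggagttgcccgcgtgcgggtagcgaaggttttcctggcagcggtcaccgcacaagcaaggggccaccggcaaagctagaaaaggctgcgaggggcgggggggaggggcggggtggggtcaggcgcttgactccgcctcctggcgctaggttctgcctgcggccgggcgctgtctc
Sema4f: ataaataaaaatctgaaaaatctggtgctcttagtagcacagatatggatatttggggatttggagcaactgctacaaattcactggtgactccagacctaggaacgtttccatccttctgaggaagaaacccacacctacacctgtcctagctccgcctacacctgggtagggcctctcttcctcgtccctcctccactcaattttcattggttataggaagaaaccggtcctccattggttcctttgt
Flt4: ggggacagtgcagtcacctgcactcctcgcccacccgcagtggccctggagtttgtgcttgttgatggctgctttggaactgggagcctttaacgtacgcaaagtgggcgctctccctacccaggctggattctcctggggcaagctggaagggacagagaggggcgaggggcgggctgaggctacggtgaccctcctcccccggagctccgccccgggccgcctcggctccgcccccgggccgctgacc
Plxnc1: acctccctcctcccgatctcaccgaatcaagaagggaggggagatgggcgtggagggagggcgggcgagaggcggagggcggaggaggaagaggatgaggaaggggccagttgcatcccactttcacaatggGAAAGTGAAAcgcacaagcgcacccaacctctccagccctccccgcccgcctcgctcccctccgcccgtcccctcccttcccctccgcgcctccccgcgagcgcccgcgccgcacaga

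The window of Plxnc1 held such a match, GAAAGTGAAA, at positions -118 to -109 from the start, and the windows of Kdr, Sema7a, Sema4f and Flt4 held none. Windows were available for 32 of the 39 members, 44 in all, some of them overlapping where a gene has several starts. None was available for Plxdc1, Plxdc2, Plxna1, Plxna4, Sema3b, Sema3f and Sema6a, so the counts below leave these genes out. Searched on both strands, this element was found in 3 of these 44 windows, those of Plxnc1, Sema6b and Vegfa, and in 2.98% of all 32851 windows of that length. The gamma-activated site TTCNNNGAA was found in 0 of the 44, against 7.02% of all windows. The hypoxia element core ACGTG was found in 8 of the 44, against 16.6% of all, in Sema3c, Sema4b, Sema4d, Sema4g, Sema6b, Sema6d and Vegfa. These matches describe the letters of short windows and show no binding.

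In wild type cDC2s mite extract raised 5 of the 39 members and lowered 9. The VEGF receptor gene Kdr and the membrane semaphorin gene Sema7a rose most, and the plexin domain gene Plxdc2, the secreted semaphorin gene Sema3c and the plexin genes Plxna4 and Plxna1 fell most. The 14 called members are 35.9% of the list, against 17.6% of all genes tested (8.35% higher and 9.23% lower). The median difference of the members was -0.13, against 0.03 over all genes. The wild type groups did not overlap in 26 members, where 52.6% of all genes did not overlap. The calls lay mostly among brighter probesets, with 12 of 23 members at or above the median brightness of all genes called and 2 of 16 below it, where 30.4% and 4.74% of all genes were called. Without replicate 2 of mite-treated wild type, 9 members passed.

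Between mite-treated Irf3-deficient and mite-treated wild type cells 12 members differed, 7 of them higher in Irf3-deficient cells and 5 lower. They are 30.8% of the list, against 19.7% of all genes (10.7% higher and 9.0% lower), and 10 of the 12 were among the 23 brighter members, where 35.0% of all genes were called. The treated genotypes did not overlap in 19 members, against 43.7% of all genes. Plxdc2, Sema6d, Plxna4, Plxna1, Nrp2, Vegfa and Plxnb2 were higher, and Kdr, Sema7a, Sema4f, Flt4 and Plxnc1 were lower. Set against PBS wild type, mite-treated Irf3-deficient cells differed in 7 members (17.9%, against 10.8% of all genes, 5.89% higher and 4.91% lower). Nrp2, Sema6d, Sema7a and Plxdc2 were higher there, and Sema3c, Sema4c and Plxdc1 were lower. These groups did not overlap in 22 members, against 39.1% of all genes. All 7 called members were among the 23 brighter ones, where 19.2% of all genes were called. Each pair of these comparisons shares an arm, so a gene's differences in them are not independent and stand side by side below as description.

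**Figure D1:**
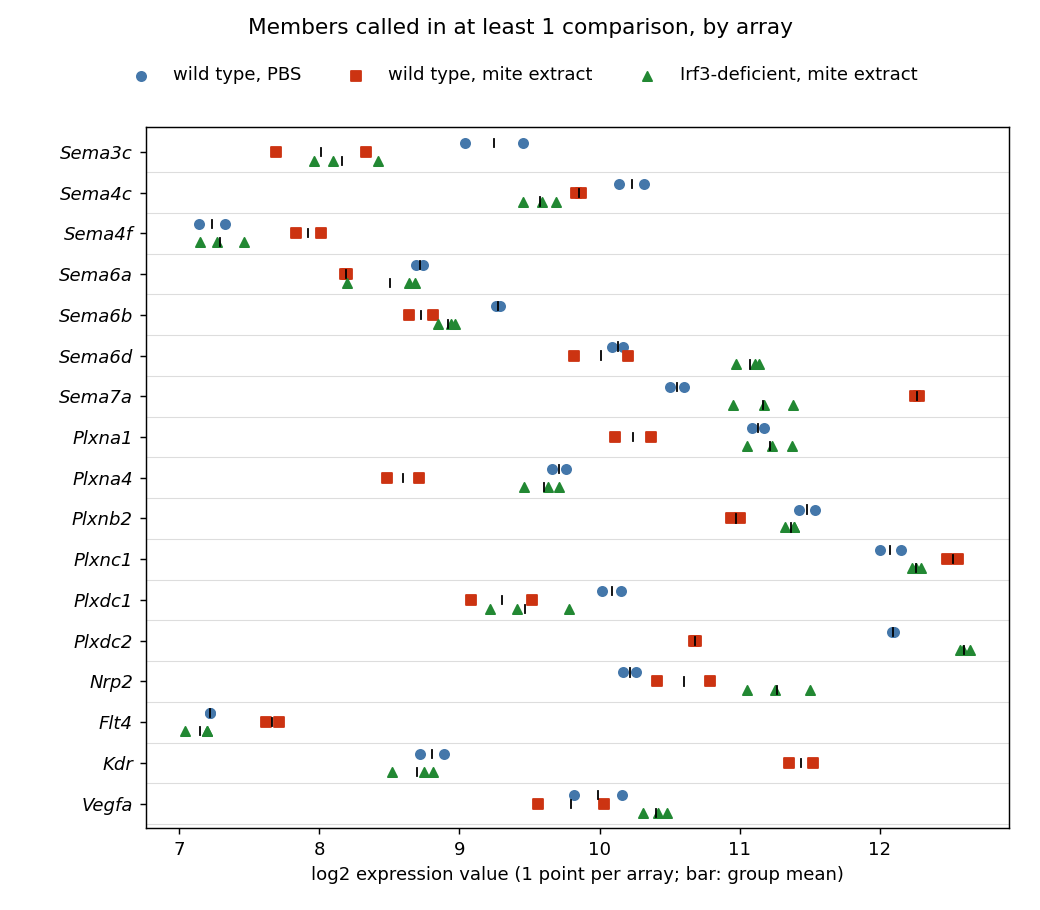
Log2 expression value (x axis) of the 17 members called in at least 1 comparison (y axis), 1 point per array, with a bar at each group mean. Circles are PBS wild type, squares mite-treated wild type and triangles mite-treated Irf3-deficient arrays; Kdr shows both squares above 11 and all other points below 9, and Plxdc2 shows both squares below the other 5 points.

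Among the membrane semaphorins Sema7a, a protein held by a lipid anchor that binds integrins and Plxnc1, changed most. Its log2 value was 10.50 and 10.60 in PBS wild type, 12.25 and 12.28 in mite-treated wild type, and 10.95, 11.17 and 11.38 in Irf3-deficient cells. The 3 groups did not overlap, and the Irf3-deficient arrays lay between the wild type groups. Sema7a rose 3.29-fold in wild type (95% CI 2.70 to 4.01, adjusted p = 1.52e-06). It was 2.14-fold lower in Irf3-deficient than in wild type treated cells (1.79 to 2.56, adjusted p = 4.02e-05). Above PBS wild type it stood 1.54-fold higher (1.28 to 1.84, adjusted p = 0.00556). That last call was lost without replicate 1 of PBS wild type, at a difference of 0.57 (adjusted p = 0.0801). Plxnc1, its plexin receptor, was at 12.15 and 12.00, then 12.56 and 12.48, and then 12.29, 12.26 and 12.23 in the same order of groups. It rose by 0.45 ± 0.09 (SE, adjusted p = 0.00476) in wild type, or by 0.37 without replicate 2 of PBS wild type (adjusted p = 0.054). Its difference of -0.26 ± 0.09 between the treated genotypes lay at the threshold (adjusted p = 0.0487). It passed in 5 of 17 other settings, and failed without any single array of the treated groups or without replicate 1 of PBS wild type (adjusted p = 0.0504 to 0.219).

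Sema6d, a ligand of Plxna1, was the other membrane semaphorin with a large difference, and it had another pattern. Its values were 10.09 and 10.17 in PBS wild type and 10.20 and 9.82 in mite-treated wild type, which overlapped (difference -0.12, 95% CI -0.41 to 0.17, adjusted p = 0.631). In Irf3-deficient cells they were 11.14, 10.97 and 11.11, above every wild type array. Sema6d was 2.10-fold higher than in treated wild type (95% CI 1.74 to 2.52, adjusted p = 5.93e-05) and 1.93-fold higher than in PBS wild type (1.60 to 2.32, adjusted p = 0.00046).

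Sema4f, a semaphorin known mainly from nervous tissue, was dim, and its treated wild type arrays stood above the other 5. It was at 7.14 and 7.33, then 8.01 and 7.83, and then 7.27, 7.15 and 7.46. It rose by 0.69 ± 0.13 (SE, adjusted p = 0.00236), was lower by a difference of -0.63 ± 0.12 in Irf3-deficient than in wild type treated cells (adjusted p = 0.00209), and differed by 0.06 (95% CI -0.20 to 0.31) between Irf3-deficient and PBS wild type cells.

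Sema4c, Sema6a and Sema6b fell by less. Sema6b, which binds Plxna4, was at 9.26 and 9.29, then 8.81 and 8.64, and then 8.94, 8.85 and 8.97, with a difference of -0.55 ± 0.12 in wild type (SE, adjusted p = 0.00491). Without replicate 2 of mite-treated wild type it did not pass (-0.47, adjusted p = 0.055). Sema6a was at 8.69 and 8.74, then 8.20 and 8.18, with a difference of -0.53 ± 0.15 (adjusted p = 0.0296), and its Irf3-deficient arrays split, at 8.68, 8.64 and 8.20. The Sema6a call was lost without any 1 of the 4 wild type arrays (adjusted p = 0.0799 to 0.123). Without replicate 3 of the Irf3-deficient arrays, Sema6a was higher there than in treated wild type, by 0.47 (adjusted p = 0.0142), against 0.32 (adjusted p = 0.143) with it. Sema4c, a ligand of Plxnb2, stepped down from 10.14 and 10.32 to 9.87 and 9.83 and to 9.45, 9.69 and 9.59. Its difference of -0.65 ± 0.11 between Irf3-deficient and PBS wild type cells passed (adjusted p = 0.00267). The difference of -0.38 ± 0.12 within wild type lay at the threshold (adjusted p = 0.0497) and was lost without any 1 of the 4 wild type arrays (adjusted p = 0.065 to 0.229) or without replicate 2 or 3 of the Irf3-deficient arrays (0.0705 and 0.0748).

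Sema4a and Sema4d, the semaphorins best known from immune cells, were bright and showed no called difference. Sema4a lay between 12.34 and 12.65 over the 7 arrays, with 95% CIs of -0.09 to 0.31 for the wild type response and -0.10 to 0.27 between the treated genotypes. Irf3-deficient and PBS wild type cells differed by 0.19 for Sema4a (0.01 to 0.37), which did not pass (adjusted p = 0.196). Sema4d lay between 11.51 and 11.73 on its brighter probeset (95% CIs -0.34 to 0.09 and -0.22 to 0.18). Its other probeset, with group means of 8.26, 8.21 and 8.56, gave a difference of 0.35 between the treated genotypes (adjusted p = 0.0487 over all probesets), where the brighter probeset gave -0.02. The probesets of Sema4d therefore disagree, and both probesets of Sema6b held the same values. Sema4b, Sema4g, Sema5a, Sema5b and Sema6c, the other membrane members, passed in no comparison, with no difference above 0.21 in size.

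Of the 7 secreted class 3 semaphorins, only Sema3c passed in a comparison. Its value was 9.04 and 9.45 in PBS wild type, 8.33 and 7.69 in mite-treated wild type, and 7.96, 8.42 and 8.10 in Irf3-deficient cells. The PBS arrays were above all 5 mite-treated arrays, and the treated genotypes overlapped. Sema3c fell 2.35-fold in wild type (95% CI 1.71 to 3.22, adjusted p = 0.0012) and was 2.12-fold lower in Irf3-deficient than in PBS wild type cells (1.59 to 2.83, adjusted p = 0.00326). Between the treated genotypes it differed by 0.15 (95% CI -0.27 to 0.56). The other 6, from Sema3a to Sema3g, differed by at most 0.28 in size in the 3 comparisons, and 5 of them were below the median brightness.

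Among the plexins, Plxna4, Plxna1 and Plxnb2 fell in wild type cells, and their Irf3-deficient arrays lay near those of PBS wild type. Plxna4, a class A plexin that also acts in macrophages, was at 9.66 and 9.76, then 8.48 and 8.71, and then 9.71, 9.63 and 9.46. It fell 2.16-fold in wild type (95% CI 1.78 to 2.62, adjusted p = 5.86e-05) and was 2.01-fold higher in Irf3-deficient than in wild type treated cells (1.68 to 2.40, adjusted p = 6.9e-05). Plxna1, the receptor of Sema6d, was at 11.09 and 11.17, then 10.11 and 10.37, and then 11.37, 11.05 and 11.23. It fell 1.85-fold in wild type (1.52 to 2.25, adjusted p = 0.000421) and was 1.96-fold higher in Irf3-deficient treated cells (1.64 to 2.35, adjusted p = 0.000101). Both genes had treated wild type arrays below all other 5.

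Plxnb2, a receptor of class 4 semaphorins, was at 11.42 and 11.54, then 10.94 and 11.00, and then 11.39, 11.39 and 11.32. Its differences were smaller, at -0.51 ± 0.10 in wild type (SE, adjusted p = 0.00317) and 0.40 ± 0.09 between the treated genotypes (adjusted p = 0.00766). Irf3-deficient and PBS wild type cells differed by 0.09 for Plxna1 (95% CI -0.17 to 0.35), -0.10 for Plxna4 (-0.36 to 0.15) and -0.11 for Plxnb2 (-0.31 to 0.09), none of which passed. Plxnd1, the receptor of Sema3e, was bright, at 12.44 to 12.72, with no called difference (95% CI of the wild type response -0.11 to 0.28). Its difference of 0.20 between Irf3-deficient and PBS wild type cells (95% CI 0.02 to 0.37) did not pass (adjusted p = 0.171). Plxna2, Plxna3, Plxnb1 and Plxnb3 were dim and passed in no comparison.

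Plxdc2, a membrane protein with a plexin-like domain, was bright and differed in all 3 comparisons. It was at 12.09 and 12.10 in PBS wild type, 10.67 and 10.69 in mite-treated wild type, and 12.64, 12.57 and 12.59 in Irf3-deficient cells, and no group overlapped another. It fell 2.66-fold in wild type (95% CI 2.32 to 3.06, adjusted p = 3.47e-07). It was 3.78-fold higher in Irf3-deficient than in wild type treated cells (3.34 to 4.29, adjusted p = 2.89e-08), and 1.42-fold higher than in PBS wild type (1.25 to 1.61, adjusted p = 0.00215). Its relative Plxdc1, first described on tumour endothelium, was lower in both mite-treated groups. It was at 10.15 and 10.02, then 9.52 and 9.08, and then 9.78, 9.41 and 9.22. Plxdc1 fell by a difference of -0.78 ± 0.18 in wild type (SE, adjusted p = 0.00953) and was lower in Irf3-deficient than in PBS wild type cells by -0.61 ± 0.17 (adjusted p = 0.0336). The treated genotypes overlapped. The first call was lost without replicate 1 of PBS wild type or replicate 2 of mite-treated wild type (-0.71 and -0.56, adjusted p = 0.0802 and 0.0945). The second was lost without replicate 1 or 2 of PBS wild type (adjusted p = 0.239 and 0.0986) or without replicate 2 or 3 of the Irf3-deficient arrays (0.0997 and 0.118).

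Macrophage genes moved in the same arrays as these falls. Of 15 measured macrophage and monocyte markers, 14 were lower and 1 higher in mite-treated than in PBS wild type cells (median -1.38, against 0.03 over all genes), and 13 were higher and 2 lower in Irf3-deficient than in wild type treated cells (median 1.03). Adgre1 differed by -2.05 and 1.17 in these comparisons and Cd163 by -1.88 and 0.98. The marker that went the other way in wild type was Fcgr1, the gene of CD64, for which the sort was negative, at 1.79 (adjusted p = 2.2e-05) and -1.67 between the treated genotypes (adjusted p = 2.23e-05). Apoe was also lower between the treated genotypes (adjusted p = 0.00164) and differed by -3.03 between Irf3-deficient and PBS wild type cells (adjusted p = 1.41e-06), where 3 of the 15 markers were lower and 0 higher. The mean log2 value of the 15 markers lay between 11.33 and 11.66 in PBS wild type, 10.05 and 10.48 in mite-treated wild type, and 10.95 and 11.10 in Irf3-deficient arrays. Their part in the differences of Plxna1, Plxna4, Plxnb2 and Plxdc2 was not tested.

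Neuropilins are co-receptors for class 3 semaphorins and VEGF. Nrp2, known on dendritic cells for its role in chemotaxis, was at 10.17 and 10.26 in PBS wild type, 10.41 and 10.79 in mite-treated wild type, and 11.05, 11.25 and 11.50 in Irf3-deficient cells. The Irf3-deficient arrays were above all wild type arrays. Nrp2 was 2.08-fold higher there than in PBS wild type (95% CI 1.68 to 2.58, adjusted p = 0.000613) and 1.59-fold higher than in treated wild type (1.28 to 1.97, adjusted p = 0.00509). The wild type response of 0.39 did not pass (adjusted p = 0.119). Both values depended on which array of mite-treated wild type was kept. Without replicate 1 of that group the wild type response was 0.58 (adjusted p = 0.0331) and the difference between the treated genotypes 0.48 (adjusted p = 0.0607). Without replicate 2 they were 0.20 (adjusted p = 0.557) and 0.86 (adjusted p = 0.00294). Nrp1 lay between 10.50 and 10.82 and passed in no comparison (95% CI of the wild type response -0.50 to 0.00).

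Kdr, the main signalling receptor for VEGF, had the largest difference of all members. Its value was 8.72 and 8.89 in PBS wild type, 11.35 and 11.52 in mite-treated wild type, and 8.75, 8.81 and 8.52 in Irf3-deficient cells. Both treated wild type arrays were far above the other 5, which overlapped each other. Kdr rose 6.19-fold in wild type (95% CI 5.06 to 7.56, adjusted p = 4.97e-08) and was 6.68-fold lower in Irf3-deficient than in wild type treated cells (5.56 to 8.02, adjusted p = 3.04e-08). Irf3-deficient and PBS wild type cells differed by -0.11 (95% CI -0.37 to 0.15, adjusted p = 0.669).

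Flt4, the receptor for VEGF-C on lymphatic endothelium, was dim and followed the same order. It was at 7.22 in both PBS arrays, 7.62 and 7.71 in mite-treated wild type, and 7.20, 7.04 and 7.20 in Irf3-deficient cells. It rose by 0.45 ± 0.11 (SE, adjusted p = 0.0113), a call lost without replicate 2 of mite-treated wild type (0.40, adjusted p = 0.091). It was lower by a difference of -0.52 ± 0.10 in Irf3-deficient than in wild type treated cells (adjusted p = 0.00228). Flt1, a high-affinity VEGF receptor with weak signalling, was at 9.08 and 9.18, then 9.15 and 9.63, and then 9.20, 8.94 and 9.02, and passed in no comparison. The treated wild type arrays disagreed on Flt1. Without replicate 1 of that group the wild type response was 0.50 (adjusted p = 0.0486) and the difference between treated genotypes -0.57 (adjusted p = 0.0169), and without replicate 2 they were 0.02 (adjusted p = 0.968) and -0.09 (adjusted p = 0.823).

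Endothelial markers did not rise with Kdr. Of 20 endothelial markers, all measured, 14 fell and 0 rose in mite-treated wild type cells (median -0.65), and 11 were lower and 0 higher in Irf3-deficient than in PBS wild type cells (median -0.48). Between the treated genotypes 1 was higher, Tek, and 0 lower (median 0.13). Pecam1 was at 9.30 and 9.36, then 8.77 and 8.60, and then 8.90, 8.99 and 8.83, and Cdh5, the gene of VE-cadherin, was at 10.19 and 10.63, then 9.70 and 9.46, and then 9.86, 10.00 and 9.55. Cldn5 differed by -0.65 in wild type (adjusted p = 0.083) and Tek by -0.85 (adjusted p = 0.00919). The mean log2 value of the 20 markers lay between 8.85 and 9.11 in PBS wild type, 8.26 and 8.48 in mite-treated wild type, and 8.43 and 8.64 in Irf3-deficient arrays. This mean was highest in PBS wild type. The part of these markers in the differences of Kdr was not tested. Nor was their part in the falls of Sema3c, Plxdc1 and Sema6b, which stood highest in the same arrays. Of 5 lymphatic endothelial markers 2 fell and 0 rose in wild type, namely Pdpn at -0.48 and Lyve1 at -0.66.

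**Figure D2:**
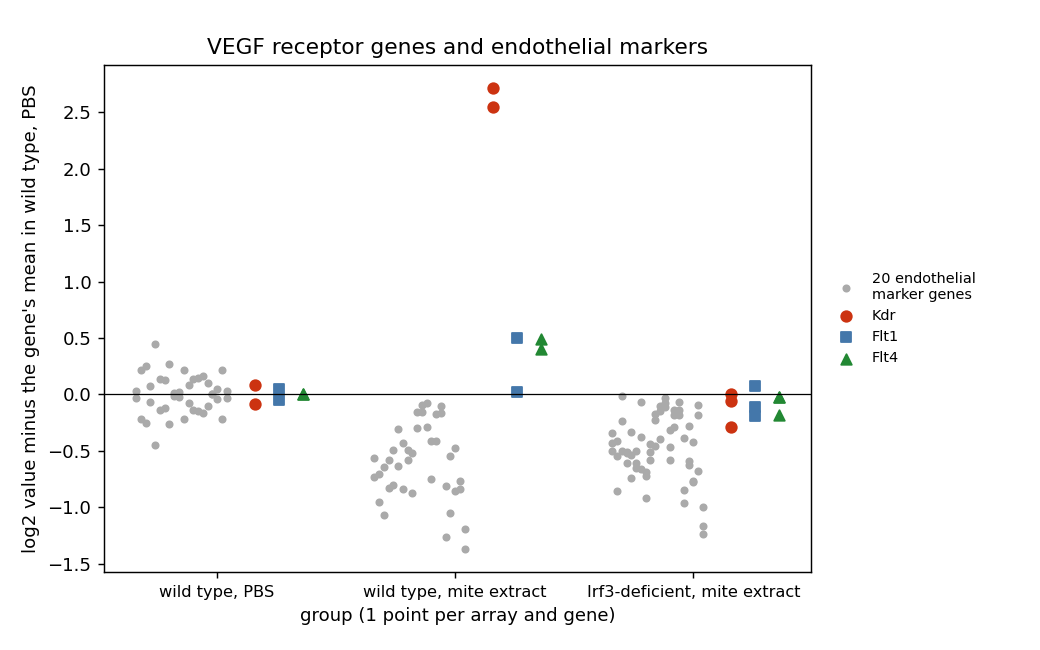
Log2 value of each gene minus its own mean in PBS wild type (y axis) in the 3 groups (x axis), 1 point per array and gene. Grey points are 20 endothelial markers, and coloured points are Kdr (circles), Flt1 (squares) and Flt4 (triangles); in mite-treated wild type Kdr lies more than 2.5 above its PBS mean while the grey points lie below 0.

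Interferon-stimulated genes moved in the same arrays as Kdr. Of 27 measured, 27 rose in wild type (median 3.02), 27 were lower in Irf3-deficient than in wild type treated cells (median -2.31) and 25 were higher in Irf3-deficient than in PBS wild type cells (median 0.91). Oasl1 differed by 4.15 in wild type and Mx2 by 3.66, Mx2 by -2.74 and Dhx58 by -2.18 between the treated genotypes, and Rsad2 by 1.96 and Oasl1 by 1.51 between Irf3-deficient and PBS wild type cells. Their mean log2 value lay between 9.33 and 9.38, 12.48 and 12.62, and 10.01 and 10.47 in the 3 groups. In Irf3-deficient cells this list thus stood above its PBS level, as did Sema7a, whereas Kdr, Flt4 and Sema4f did not pass against PBS wild type. Whether these members depend on interferon was not tested.

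Of the VEGF ligands, Vegfa passed in a comparison and Vegfb and Vegfc in none. Vegfa, the ligand of Kdr and Flt1, was at 9.82 and 10.16 in PBS wild type, 9.56 and 10.03 in mite-treated wild type, and 10.31, 10.48 and 10.42 in Irf3-deficient cells. The Irf3-deficient arrays were above all wild type arrays, and the wild type groups overlapped. Vegfa was 1.53-fold higher in Irf3-deficient than in wild type treated cells (95% CI 1.22 to 1.90, adjusted p = 0.0102), a call lost without replicate 1 of mite-treated wild type (0.38, adjusted p = 0.129). Against PBS wild type it differed by 0.41 (95% CI 0.09 to 0.73), which did not pass (adjusted p = 0.103). It passed without either array of mite-treated wild type, which affects only the shared spread (adjusted p = 0.0446 and 0.0451). Vegfb differed by -0.30 in wild type (adjusted p = 0.101).

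**Figure D3:**
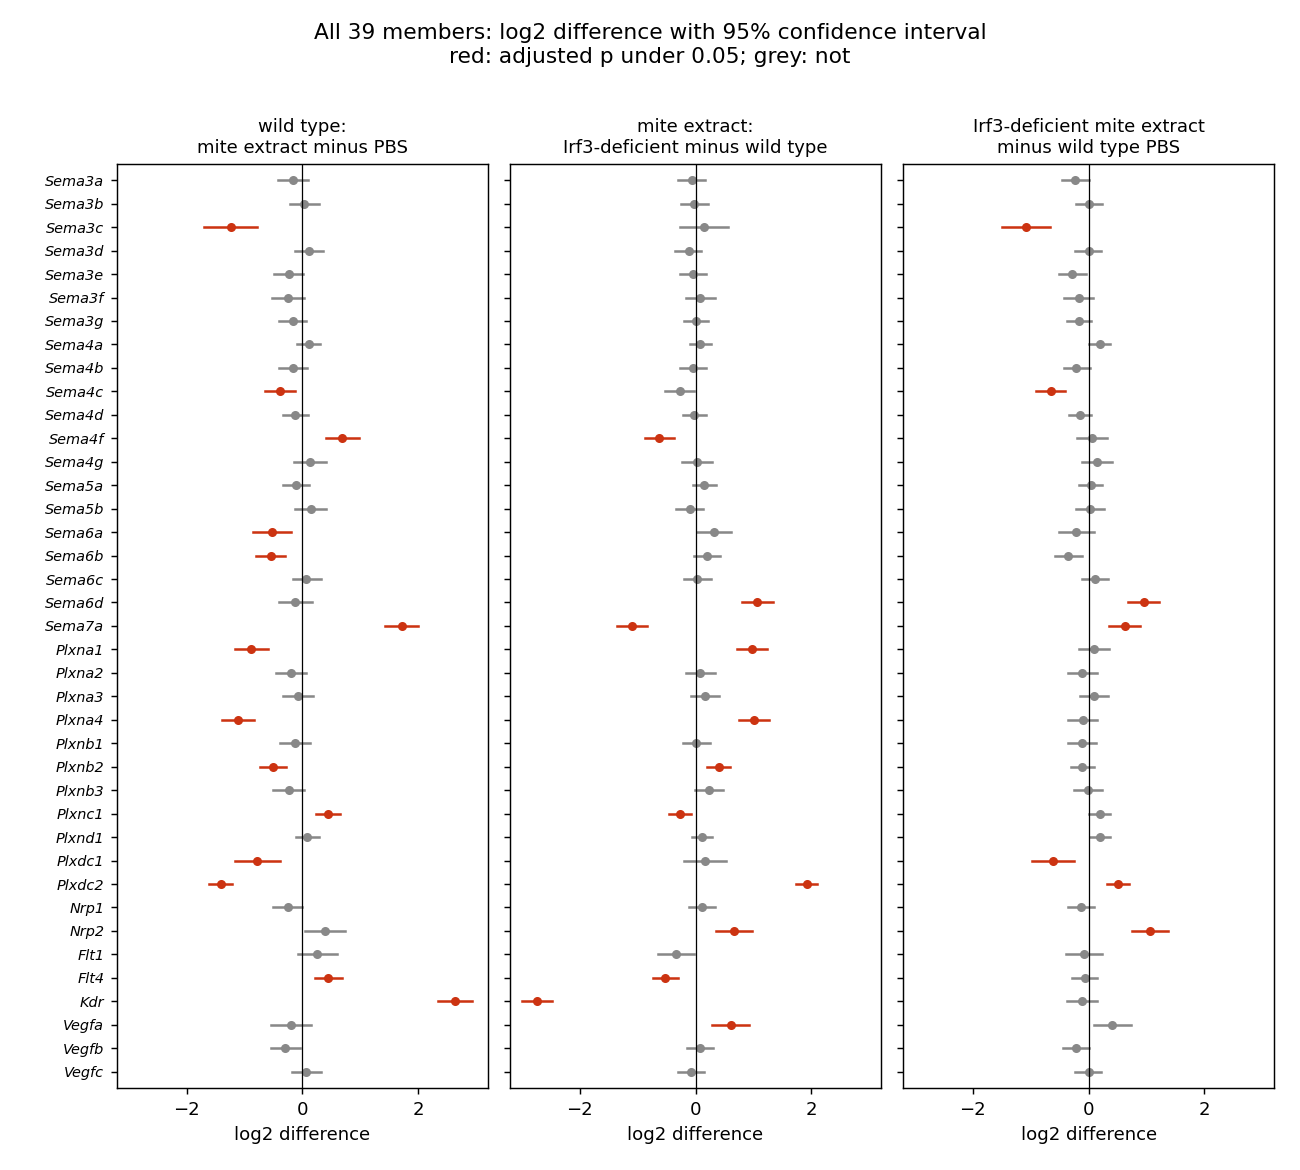
Log2 difference (x axis) of all 39 members (y axis) in the 3 comparisons, with the 95% confidence interval of the fit as a line. Red marks an adjusted p under 0.05 over all genes, in 14, 12 and 7 members from left to right; Kdr stands at 2.63, -2.74 and -0.11.

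Other genes of these pathways were read from lists. Of all genes, 17.6% were called in the wild type response, 19.7% between the treated genotypes and 10.8% against PBS wild type. Most genes of these lists were at or above the median brightness, where those shares were 30.4%, 35.0% and 19.2%. A count near these shares is no result about its list. Of 16 genes listed as partners of semaphorins, 2 rose and 4 fell in wild type (median -0.08), and 4 were higher and 2 lower in Irf3-deficient than in wild type treated cells (median 0.08). Trem2, a receptor that pairs with Plxna1 in myeloid cells, fell by a difference of -1.31 (adjusted p = 3.48e-05) and was higher by 1.10 in Irf3-deficient treated cells (adjusted p = 7.87e-05). Met, a receptor kinase that couples to class B plexins, rose by 1.20 (adjusted p = 8.51e-05) and was lower in Irf3-deficient cells at -0.94 (adjusted p = 0.00029). Itga1, whose integrin binds Sema7a, fell by 1.07 in wild type (adjusted p = 0.000674) and was lower at -0.70 in Irf3-deficient than in PBS wild type cells (adjusted p = 0.0109). Havcr2, which is on the list but is not an established partner, was higher in Irf3-deficient than in wild type treated cells, by 0.79. Itgb1 was lower there, at -0.31. Against PBS wild type, Irf3-deficient cells had 2 genes of the list higher and 1 lower, with Ptprj at 0.42 and Havcr2 at 0.40.

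Of 33 measured genes of plexin signalling, 4 rose and 9 fell in wild type (median -0.15), and 7 were higher and 2 lower between the treated genotypes (median 0.08). The kinase gene Fes, which acts below Plxna1 complexes, fell by 0.73 (adjusted p = 0.000484), as did the Rac activator Tiam1, which fell by 0.62. The small GTPase gene Rras2 rose by 0.83 (adjusted p = 0.000149) and the collapsin response gene Dpysl5 by 0.87. In Irf3-deficient against wild type treated cells Mical2, of the oxidoreductases that relay plexin signals to actin, was higher by 0.69 (adjusted p = 0.00127) and Mras by 0.64, and Dpysl5 was lower at -0.67 and Rap1b at -0.36. Against PBS wild type 2 were higher, Rras2 at 0.70 and Fyn at 0.51, and Fes was lower at -0.64.

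Of 28 further genes of the VEGF pathway, 2 rose and 6 fell in wild type (median -0.06), and 3 were higher and 3 lower between the treated genotypes. The Notch ligand gene Dll4 rose by 0.89 (adjusted p = 0.00051) and Spred1, an inhibitor of growth factor signalling, by 0.56. Epas1, a hypoxia-inducible factor gene, fell by 1.05 (adjusted p = 0.00187) and Tie1, also in the endothelial list, fell by 0.71. In Irf3-deficient against wild type treated cells Arnt was higher by 0.38 and Egln1 by 0.44, and Ptpn6 was lower at -0.46 and Plcg1, a relay of Kdr signals, at -0.50 (adjusted p = 0.00608). Against PBS wild type 3 were higher and 3 lower, with Pgf, a ligand of Flt1, at 0.86 (adjusted p = 0.0265), Spred1 at 0.41 and Vegfd at -0.35. Of 20 hypoxia targets 3 rose and 3 fell in wild type, with Ndrg1 at 2.13 and Bnip3 at -0.64. Between the treated genotypes, where Vegfa was higher in Irf3-deficient cells, 4 were higher and 2 lower, with Bnip3l at 0.70 and Ndrg1 at -1.07.

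In all, 17 of the 39 members were called in at least 1 comparison, where 28.6% of all genes were, and 22 in none. The latter included bright genes such as Plxnd1, Sema4a, Sema4d and Nrp1. Of the called differences, 7 of 14, 7 of 12 and 4 of 7 in the 3 comparisons passed under every other setting that tested them. Sema4f, which is below the median brightness, was not tested under the filter on dim genes. Those of Kdr, Plxdc2, Plxna1, Plxna4, Sema7a, Sema3c and Sema4f made up the 7 of the wild type response. Those of Kdr, Plxdc2, Plxna1, Plxna4, Sema6d, Sema7a and Sema4f made up the 7 between the treated genotypes, and those of Nrp2, Sema3c, Sema4c and Sema6d made up the 4 against PBS wild type. The settings include the 1.5-fold minimum, which a smaller difference fails by its size alone. That minimum was the only setting failed by Plxnb2 in the wild type response and by Plxnb2 and Flt4 between the treated genotypes. The same holds for Plxdc2 against PBS wild type.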

How the data were processed

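Per the labels, RNA of 7 pools was read on 1-colour Affymetrix whole-transcript arrays. The authors deposited 1 log2 value per array for each of 35556 probesets. The tools listed in the submitters' processing notes are RMA, oligo and R 3.2.1, with no role or order. Such normalisation hides a change shared by most genes, and signals of different probesets do not rank genes. Array medians lay between 7.60 and 7.69, no detection calls were used, and the number of arrays limits the precision.

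The platform annotation gave 1 symbol to 21789 probesets, several to 1621 and did not list 12146, and symbols were updated through Entrez identifiers (RefSeq, GRCm38.p6, 19856 of 19938 genes matched). The probeset with the highest mean stood for a gene. Group means over all 7 arrays were fitted in limma 3.58.1 under R 4.3.3 (lmFit, eBayes with an intensity trend, 4 residual and 8.34 prior degrees of freedom), with two-sided tests, Benjamini-Hochberg adjustment over 19938 genes and a threshold of 0.05. This fit is the source of every adjusted p-value, with 2 exceptions. Those given without an array come from the same fit repeated on the remaining arrays. That of the other Sema4d probeset was adjusted over the 21789 probesets with 1 symbol. The fit was tested on simulated data. Members and lists were chosen with earlier results of these data known; the rule for members uses symbols only. Members called are all named, the others by name or range. Genes of other lists are named from among the 2 called genes per direction and comparison with the smallest p, not all of which are printed, with Pecam1, Cdh5, Cldn5, Tek and Irf3. Genes of the sort (H2-Ab1, Itgax) were added as a check. Alternatives changed the scaling, the trend, array weights, a filter on dim genes, the choice of probeset, the groups fitted, the replicate block, a 1.5-fold minimum, and left out each array in turn. Of the marker lists, those without an evident link to a member are given in the closing section.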

Additional observations from a re-analysis of the deposited data

How the results depend on the processing

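No called difference of a member changed sign under any setting tried. In the wild type response, 14 members were called, 8 of them also at least 1.5-fold, and leaving out an array gave 9 to 14. Between the treated genotypes 12 were called (10 to 12 without an array), and against PBS wild type 7 (5 to 9). With the replicate block the 3 counts of members were 13, 12 and 6. The deviations of samples of the same number correlated at -0.23 to 0.18. With 2 arrays in a group, the deviations of 1 array mirror those of the other. These values therefore cannot tell whether samples of the same number were paired. The uncalled difference of Sema4d between the treated genotypes, -0.02, turned to 0.35 with each probeset on its own, 0.16 with the mean of its probesets, 0.00 after quantile normalisation, 0.01 with array weights, 0.01 with the replicate block, and ranged from -0.07 to 0.01 when an array was left out, with 0.00 and 0.01 without replicates 1 and 3 of the Irf3-deficient arrays; the cause in the first 2 is its other probeset, and in the rest was not tested. Median centring or quantile normalisation moved the median of all genes by less than 0.1 (from 0.029 to 0.043 and -0.005 in the wild type response). Sema4c and Sema6a lost their calls in the wild type response under both scalings, as did Plxnc1 between the treated genotypes. Plxdc1 lost its call against PBS wild type under median centring. The filter on dim genes left 23 members to test, so it says nothing of the other 16, Sema4f and Flt4 among them. The number of arrays, 2 or 3 a group, limits what could be detected.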

Other observations

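The sort could also hold other cell types, whose markers gave these values. Of all genes, 17.6% were called in the wild type response, 19.7% between the treated genotypes and 10.8% against PBS wild type. Of 11 T and NK cell markers, 9 had a mean below the median of all genes, and 5 rose and 1 fell in wild type cells, with Cd8a at 1.41 and Cd4 at -1.02; 2 were higher and 5 lower between the treated genotypes. Of 7 B cell markers 6 were below that median, with 1 higher (Ms4a1 at 0.62) and 1 lower (Fcrla at -0.95) in wild type. Of 9 plasmacytoid dendritic cell markers, 4 rose and 0 fell in wild type, led by the interferon-responsive Bst2 at 2.44. Between the treated genotypes 1 was higher in Irf3-deficient cells, Ccr9 at 2.60. The 3 lower ones included Bst2 at -2.25 and Spib at -1.23. Against PBS wild type 2 were higher and 0 lower, with Ccr9 at 2.53.

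Of 9 cDC1 markers 3 rose and 3 fell in wild type, with Itgb8 at 1.97, Irf8 at 1.61 and Cadm1 at -0.88. Of 14 cDC2 markers, none of them below the median, 2 rose and 5 fell there, with Ccr7 at 0.57 and Itgam at -1.06, and 5 were higher and 1 lower in Irf3-deficient than in wild type treated cells. Of 9 alveolar macrophage markers 2 rose and 3 fell, with Fabp4 at 1.25 and Mrc1 at -1.75, and 4 were higher between the treated genotypes. Of 16 epithelial and stromal markers 5 fell and 0 rose in wild type, with Epcam at -0.94. Between the treated genotypes 1 was higher in Irf3-deficient cells, Epcam at 1.78, and 1 lower, Sftpc at -0.53 (median -0.04). Against PBS wild type, Irf3-deficient cells had 1 of them higher and 5 lower. The part of these markers in the differences of the members was not tested.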
